A study of Mus musculus with 3 samples.

Results

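Foxo1, Foxo3 and Foxo4, with Inpp5d, Pik3ip1, Pik3cd and Pik3r1, were followed through 3 stages of early B lymphopoiesis in mouse bone marrow. These 7 genes were picked by symbol from the 27998 listed genes, of which 15922 had a UMI (unique molecular identifier, a tag that marks 1 captured transcript) in a kept cell. Foxo1 stood at 6.48 UMIs per 1000000 of the library (CPM) in lymphoid-primed multipotent progenitors (LMPP), 38.5 in common lymphoid progenitors (CLP) and 84.4 in pro-B cells. Foxo3 was lowest in pro-B, with 49.3 CPM in LMPP, 40.1 CPM in CLP and 11.0 CPM in pro-B. Among the PI3K genes, Inpp5d and Pik3cd were higher in CLP and pro-B than in LMPP, and Pik3ip1 and Pik3r1 were lowest in pro-B.

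All cells came from C57BL/6J mice, and the sources used here give no age or sex and no number of animals. LMPP were gated as cKit+Sca1+Flt3+IL7Ra-B220- cells, CLP as cKit+Sca1+Flt3+/-IL7Ra+B220- cells and pro-B as cKit+Sca1-Flt3-IL7Ra+B220+ cells. Each population was 1 droplet library of 3-prime tagged transcripts, in the second version of the Chromium chemistry, so no difference between populations has a replicate check and none was tested. Intervals are 95% intervals, exact Poisson for a level, exact conditional for a ratio and exact Clopper-Pearson for a share, and cover counting error only. The population and the droplet run cannot be told apart.

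Phosphoinositide 3-kinase (PI3K) is a membrane enzyme that makes the lipid PIP3 downstream of cytokine and antigen receptors, and PIP3 recruits the kinase Akt. Akt phosphorylates Foxo proteins and so keeps them out of the nucleus, which makes Foxo activity low where PI3K is active. In the B lineage Foxo1 is known for driving the IL-7 receptor gene Il7r and the recombinase genes Rag1 and Rag2. Transcript levels, the only quantity measured here, do not show where Foxo proteins are or how active the kinase is.

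The DNA just before the transcription start is shown for 3 genes with different patterns: Foxo1, which was higher at each stage, Inpp5d, which was higher from CLP on, and Pik3r1, which was lowest in pro-B. RefSeq promoters of build GRCm38.p6 were matched for 6 of the 7 genes and not for Foxo4. Each line gives the 250 bases before the start, 5′ to 3′ on the gene's own strand, from chr3:52268087-52268336 (plus strand) for Foxo1, chr1:87620062-87620311 (plus strand) for Inpp5d and chr13:101768218-101768467 (minus strand) for Pik3r1. Capitals mark matches to any motif searched.
Foxo1: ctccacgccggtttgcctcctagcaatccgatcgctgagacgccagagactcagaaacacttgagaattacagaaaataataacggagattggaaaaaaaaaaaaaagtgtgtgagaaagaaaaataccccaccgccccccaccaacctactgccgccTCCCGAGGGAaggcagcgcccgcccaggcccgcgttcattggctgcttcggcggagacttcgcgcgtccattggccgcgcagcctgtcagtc
Inpp5d: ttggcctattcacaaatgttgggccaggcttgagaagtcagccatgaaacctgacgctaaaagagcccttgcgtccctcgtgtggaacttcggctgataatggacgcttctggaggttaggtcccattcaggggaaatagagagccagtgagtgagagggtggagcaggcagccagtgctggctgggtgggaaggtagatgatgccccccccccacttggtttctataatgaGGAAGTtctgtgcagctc
Pik3r1: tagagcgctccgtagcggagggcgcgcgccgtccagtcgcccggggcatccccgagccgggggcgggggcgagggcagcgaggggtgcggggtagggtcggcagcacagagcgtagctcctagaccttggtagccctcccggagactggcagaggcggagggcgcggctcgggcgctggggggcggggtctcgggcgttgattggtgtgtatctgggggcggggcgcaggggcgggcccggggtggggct

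The capitals in the Foxo1 promoter are TCCCGAGGGA, at −92 to −83 from the start. They match the palindromic core bound by the B lineage factor Ebf1, which is TCCC and GGGA with any 2 bases between. Only 0.779% of 32851 RefSeq promoter windows of this length hold this core. None of the other promoters of these genes does, counting 3 start sites of Pik3cd and 2 of Pik3r1. The forkhead motif GTAAACA, searched like the others on both strands, is in 3.17% of all windows and in none of these. The ETS-type motif GGAAGT, in 19.7% of windows, matched only before Inpp5d (in capitals, −18 to −13), and the E-box CAGGTG, in 17.2%, only before 2 of the Pik3cd starts. The matches do not overlap one another. GC content was 56% before Foxo1, 54.4% before Inpp5d and 76.4% before the Pik3r1 start shown, against a median of 52.4% over all windows. A match is a description of letters and not of a bound site.

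By GENCODE M21 (GRCm38), Foxo1 lies on chromosome 3 from 52268336 to 52353221 on the plus strand, Foxo3 on chromosome 10 from 42181841 to 42276755 on the minus strand and Foxo4 on chromosome X from 101254528 to 101260873 on the plus strand. Inpp5d spans 87620312 to 87720507 on chromosome 1, and Pik3ip1 spans 3330401 to 3342971 on chromosome 11, both on the plus strand. Pik3cd spans 149649168 to 149702571 on chromosome 4, and Pik3r1 spans 101680563 to 101768217 on chromosome 13, both on the minus strand. All 7 are protein-coding, and no other annotated gene covers the 3-prime end of any of them, where these reads lie.

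LMPP had 579 kept cells with 4014657 UMIs, CLP 948 with 5967352, and pro-B 1106 with 7367156. Median UMIs per cell were 6789, 6258.5 and 5687.5 in the same order, and 3 UMIs, taken as the floor, are 0.747, 0.503 and 0.407 CPM. The transcripts of the sort markers followed the gates: from LMPP over CLP to pro-B, Il7r had 3.74, 141 and 104 CPM, Ly6a (Sca1) 114, 41.1 and 6.11 CPM, and Flt3 279, 300.5 and 5.16 CPM. Kit was low in pro-B, at 7.47 CPM, although the gate is cKit+. Of 10 B lineage markers, 9 were higher by 2-fold or more in CLP than in LMPP and 10 in pro-B than in CLP, and all 8 multipotent markers were lower in CLP than in LMPP. Libraries shared at most 3 cell barcodes in any pair. Ribosomal protein genes took 29.6% of UMIs in pro-B, against 41.9% in CLP and 43.5% in LMPP, and this share enters every CPM. Scaling without ribosomal protein and mitochondrial genes moves every log2 ratio of pro-B to CLP by −0.31, of pro-B to LMPP by −0.34 and of CLP to LMPP by −0.03.

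Foxo1, the Foxo factor that B lymphopoiesis requires, had 26 UMIs in LMPP, 230 UMIs in CLP and 622 UMIs in pro-B. The intervals of its level, 4.23 to 9.49 CPM in LMPP, 33.7 to 43.9 CPM in CLP and 77.9 to 91.3 CPM in pro-B, did not overlap. CLP were 5.95-fold above LMPP (log2 2.57, 1.98 to 3.22) and pro-B 2.19-fold above CLP (log2 1.13, 0.91 to 1.36). Without ribosomal protein and mitochondrial genes in the total, the second ratio was 0.82 and no longer 2-fold. In LMPP, 38.5% of genes with a UMI lay below Foxo1, in CLP 79.3% and in pro-B 87.9%.

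Foxo3, the family member best known from blood stem cells, had 198 UMIs in LMPP, 239 UMIs in CLP and 81 UMIs in pro-B. Its level was 49.3, 40.1 and 11.0 CPM in this order. The intervals overlapped between LMPP (42.7 to 56.7 CPM) and CLP (35.1 to 45.5 CPM), and both lay above pro-B (8.73 to 13.7 CPM). Pro-B were 3.64-fold below CLP (log2 −1.87, −2.25 to −1.50), whereas CLP over LMPP was −0.30 (−0.58 to −0.02) and turned to 0.15 with cells thinned to 2000 UMIs. Foxo4, a relative of both, had few UMIs throughout, with 8.72 CPM in LMPP, 6.70 CPM in CLP and 4.34 CPM in pro-B, from 35, 40 and 32 UMIs. Neighbouring Foxo4 levels were not distinguishable at this depth, and pro-B over LMPP was −1.01 (−1.74 to −0.27).

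**Figure D1:**
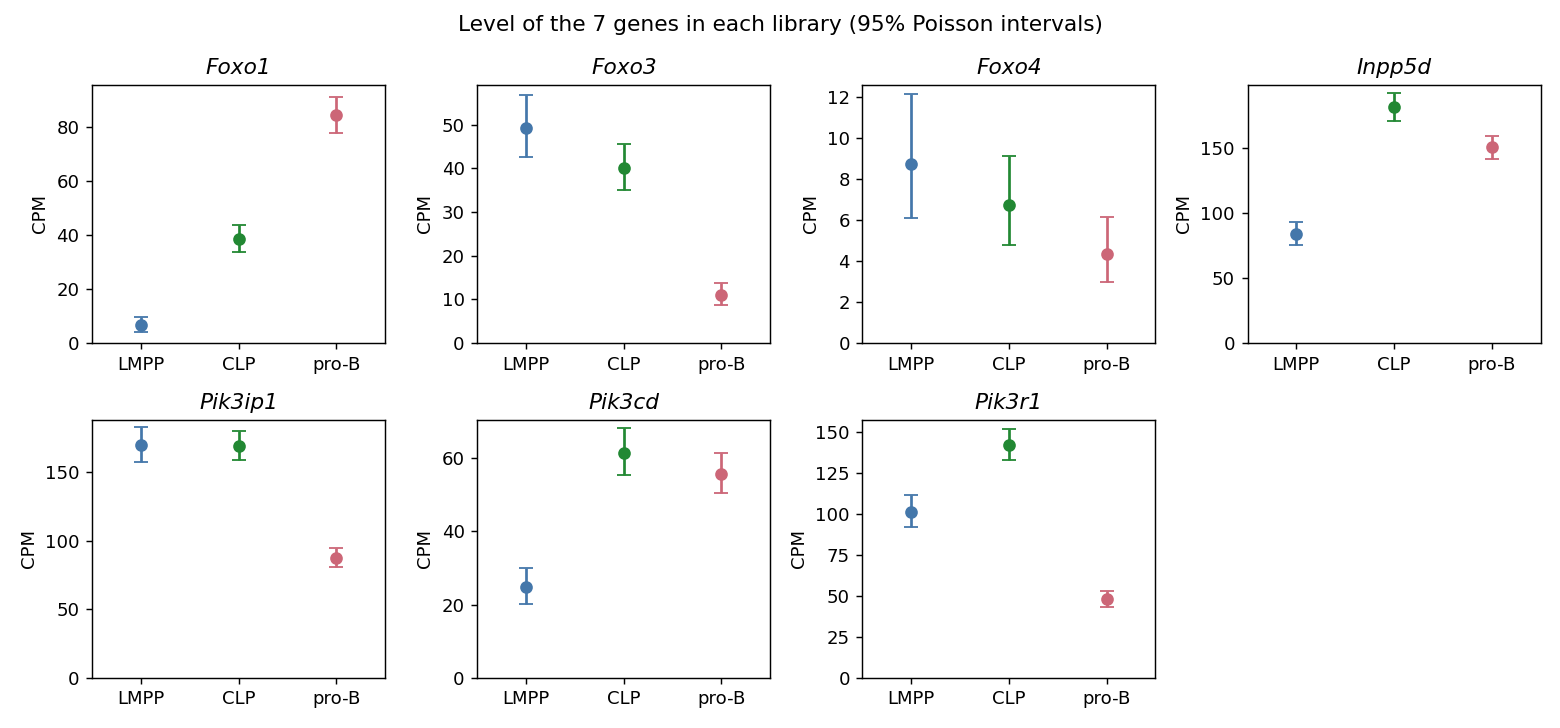
Level of each gene in CPM (linear axis from 0) in the LMPP, CLP and pro-B libraries, with 1 point per library and bars for 95% Poisson intervals. Foxo1 stands at 6.48, 38.5 and 84.4 CPM over the 3 stages, Foxo3 is at 11.0 CPM in pro-B, and Inpp5d, Pik3cd and Pik3r1 are highest in CLP.

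Within a library, the split of UMIs between 2 genes does not depend on how the library is scaled. Of the UMIs on Foxo1 and Foxo3 together, Foxo1 took 26 of 224 in LMPP (11.6%, 7.72 to 16.5), 230 of 469 in CLP (49.0%, 44.4 to 53.7) and 622 of 703 in pro-B (88.5%, 85.9 to 90.7). The 3 intervals stood apart. The sum of the 3 Foxo genes differed less, at 64.5 CPM in LMPP, 85.3 CPM in CLP and 99.8 CPM in pro-B. Capture of a transcript may differ between genes, so these shares are shares of UMIs and not of molecules. The pairing of genes was chosen after their values were seen.

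Inpp5d encodes SHIP1, the phosphatase of blood cells that removes a phosphate from PIP3. It had 83.9 CPM in LMPP, 182 CPM in CLP and 151 CPM in pro-B (337, 1084 and 1109 UMIs), and LMPP were the low library. CLP were 2.16-fold above LMPP (log2 1.11, 0.94 to 1.29), and pro-B over CLP was −0.27 (−0.39 to −0.15). Pik3ip1, a transmembrane protein that binds and restrains the PI3K catalytic subunit, had 170.1 CPM in LMPP and 169 in CLP (683 and 1011 UMIs), with overlapping intervals, and 87.6 in pro-B (645 UMIs). Pro-B were 1.94-fold below CLP (log2 −0.95, −1.10 to −0.81), just under the 2-fold threshold used for counts, and past it by log2 −1.01 without the clusters named for dendritic and innate lymphoid cells and by −1.26 without ribosomal protein and mitochondrial genes in the total.

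Pik3cd encodes p110δ, the catalytic subunit that predominates in white blood cells. Its level was 24.7 CPM in LMPP, 61.5 CPM in CLP and 55.7 CPM in pro-B (99, 367 and 410 UMIs), and the CLP and pro-B intervals overlapped. CLP were 2.49-fold above LMPP (log2 1.32, 0.99 to 1.65). Pik3r1 encodes p85α, the regulatory subunit that stabilises p110 and holds it inactive until a receptor is engaged. It peaked in CLP, at 142 CPM, with 101 in LMPP and 47.8 in pro-B (849, 407 and 352 UMIs), and no intervals overlapped. Pro-B were 2.98-fold below CLP (log2 −1.57, −1.76 to −1.39), and CLP over LMPP was 0.49 (0.32 to 0.66).

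The catalytic and the regulatory gene did not differ by the same factor. Of their joint UMIs Pik3cd took 19.6% in LMPP (99 of 506, 16.2 to 23.3), 30.2% in CLP (367 of 1216, 27.6 to 32.8) and 53.8% in pro-B (410 of 762, 50.2 to 57.4), again with intervals that stood apart.

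Counted at 2-fold or more among genes with at least 10 UMIs over both libraries, 3 of the 7 genes were higher in CLP than in LMPP (Foxo1, Inpp5d and Pik3cd) and 0 lower. Of all 11726 genes measured there, 7.42% were higher and 6.61% lower. With thinned cells Inpp5d was just short of the limit, at log2 0.997. Between pro-B and CLP, 1 of 7 was higher (Foxo1) and 2 were lower (Foxo3 and Pik3r1), beside 13.2% higher and 19.9% lower of 11877 genes. Between pro-B and LMPP, 2 of 7 were higher (Foxo1 and Pik3cd) and 3 lower (Foxo3, Foxo4 and Pik3r1), beside 14.5% and 20.3% of 11676. Of these calls, Pik3cd was under 2-fold without ribosomal protein and mitochondrial genes in the total (log2 0.83), Foxo4 with thinned cells (−0.68) and Pik3r1 among cells low in cycle transcripts (−0.79). With thinned cells, or with equal weight per cell, only Foxo3 stayed lower by 2-fold, beside 15.9% and 18.3% of all genes. With all deposited barcodes 2 were lower, beside 20.4%. The median log2 ratio of the 7 was 0.49, −0.63 and −0.96 in these comparisons, in the order given, against −0.01, −0.08 and −0.06 over all genes measured. The comparisons share libraries, so their counts are not independent.

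**Figure D2:**
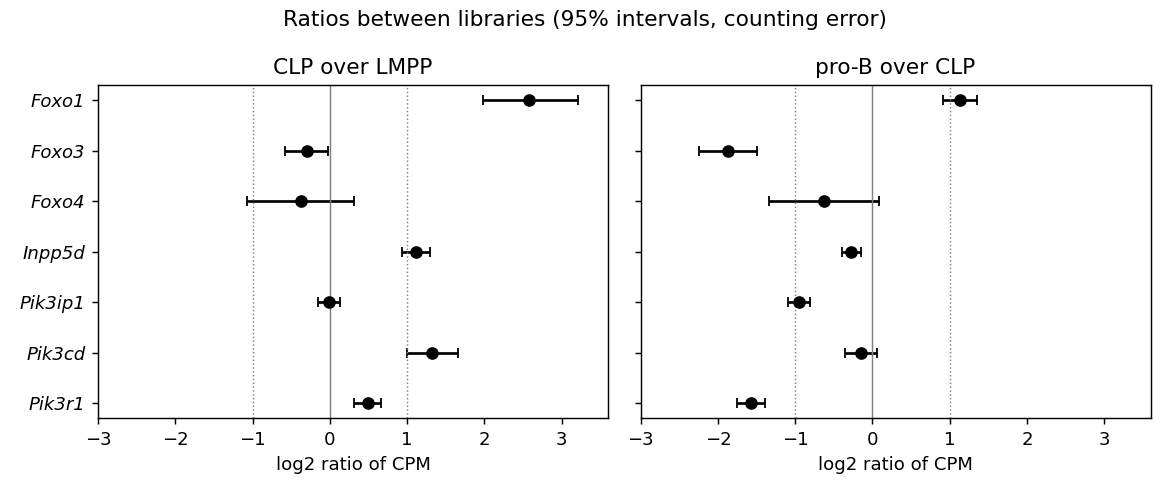
Log2 ratio of CPM for each of the 7 genes, CLP over LMPP on the left and pro-B over CLP on the right, with bars for 95% conditional intervals and dotted lines at 2-fold. Foxo1 lies to the right in both panels, at 2.57 and 1.13, and Foxo3 (−1.87) and Pik3r1 (−1.57) lie past the line on the left in pro-B over CLP.

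In single cells the genes were sparse. After every cell was thinned to 2000 UMIs, Foxo1 had a UMI in 1.75% of LMPP (0.840 to 3.19), 7.16% of CLP (5.57 to 9.03) and 19.3% of pro-B (16.9 to 21.7). Without thinning the shares were 4.32%, 18.1% and 41.7%. Thinned shares for Foxo3 were 6.98%, 8.26% and 1.68% (unthinned, 27.8%, 21.4% and 7.14%), and for Pik3r1 18.0%, 26.7% and 10.4% (unthinned, 46.1%, 55.6% and 26.5%). Inpp5d was in 17.1%, 30.1% and 27.9% of thinned cells, Pik3ip1 in 29.3%, 28.0% and 21.5%, and Pik3cd in 5.41%, 11.3% and 11.1%. For Foxo4 the shares were 2.09%, 1.65% and 1.31% (unthinned, 5.70%, 4.11% and 2.89%). No population here is known to lack these genes, so no background share of these genes can be set beside them. Ebf1, which LMPP should largely lack, had a UMI in 0.524% of thinned LMPP. The haemoglobin gene Hbb-bs, which cells of the B lineage should lack, had a UMI in 3.64% of thinned pro-B (10.8% unthinned), against 0% of thinned CLP (0 to 0.405). The pro-B shares of Foxo3 and Foxo4 lie below that of Hbb-bs. The Hbb-bs share is that of 1 gene and sets no background for other genes. At shares this low, in any library, a UMI is not read as expression by that cell. Between 29.7% (CLP) and 42.4% (LMPP) of thinned cells had no UMI of any of the 7. Of the pairs counted, some are given here. In CLP 39 of 908 thinned cells held both Foxo1 and Ebf1, where the product of the single shares gives 25.8 cells. This was not particular to Foxo1: Ebf1 was with Inpp5d in 140 CLP cells (109 by the product) and with Pik3cd in 54 (41.0). It was with Foxo3 in 26 (29.8) and with Foxo4 in 5 (5.96). In pro-B, Foxo1 and Ebf1 were together in 205 cells (203 by the product). In pro-B 64 of 1070 held both Foxo1 and Pik3ip1, where the product gives 44.3, and 2 held both Foxo1 and Foxo3, where it gives 3.47. Both Foxo1 and Foxo3 were in 4 CLP cells (5.37 by the product) and 3 LMPP cells (0.698).

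CLP are a mixed population, and their cells were put in classes by thinned UMIs of Ly6d, a surface marker of B-biased CLP, of Ebf1 and of Pax5. With neither Ebf1 nor Ly6d, 322 cells had 20.2 CPM of Foxo1. With Ly6d but no Ebf1, 220 cells had 32.8 CPM, and with Ebf1 but no Pax5, 343 cells had 61.9 CPM. The class with Ebf1 was 3.06-fold above the class with neither (log2 1.61, 1.11 to 2.14) and 1.89-fold above the Ly6d class (log2 0.92, 0.43 to 1.43). The class with neither was 3.13-fold above LMPP in Foxo1 (log2 1.64, 0.91 to 2.40). Its cells had no Ebf1 UMI after thinning, but their full counts held 76.8 CPM of Ebf1, against 7.97 CPM in LMPP, and those of the Ly6d class 132 CPM. The LMPP value came from 32 Ebf1 UMIs in 6 cells, with 19 of them in 1 cell. A Pax5 UMI was in only 23 cells, with 5 Foxo1 UMIs.

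Foxo3 was level across these CLP classes, at 41.4, 38.9 and 38.8 CPM in the classes with neither, with Ly6d and with Ebf1, and its intervals overlapped throughout. The Ebf1 class exceeded the class with neither in Inpp5d (231 against 148 CPM, log2 0.64, 0.44 to 0.85) and in Pik3cd (80.9 against 50.6 CPM, log2 0.68, 0.32 to 1.03). For Pik3ip1 it had 192 against 160 CPM and for Pik3r1 168 against 137 CPM, with log2 ratios of 0.27 and 0.30. At 2-fold or more, 1 of the 7 genes, Foxo1, was higher in the Ebf1 class than in the class with neither and 0 were lower, beside 3.75% and 3.87% of 10476 genes. In the Ly6d class 0 were higher than in the class with neither and 1, Foxo4, was lower (5 against 21 UMIs), beside 4.93% and 4.37% of 10253 genes. With 2 or more UMIs defining the classes, the Foxo4 ratio was −0.55 (−2.12 to 0.76) and no longer 2-fold. Thinned cells can miss a transcript, and 143 of the 361 cells with Ebf1 had just 1 UMI of it. The Ly6d class also held the plasmacytoid dendritic marker Siglech, at 137 CPM, against 21.2 CPM in the class with neither and 20.8 in the Ebf1 class. The part of those cells in the levels of the Ly6d class was not tested.

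**Figure D3:**
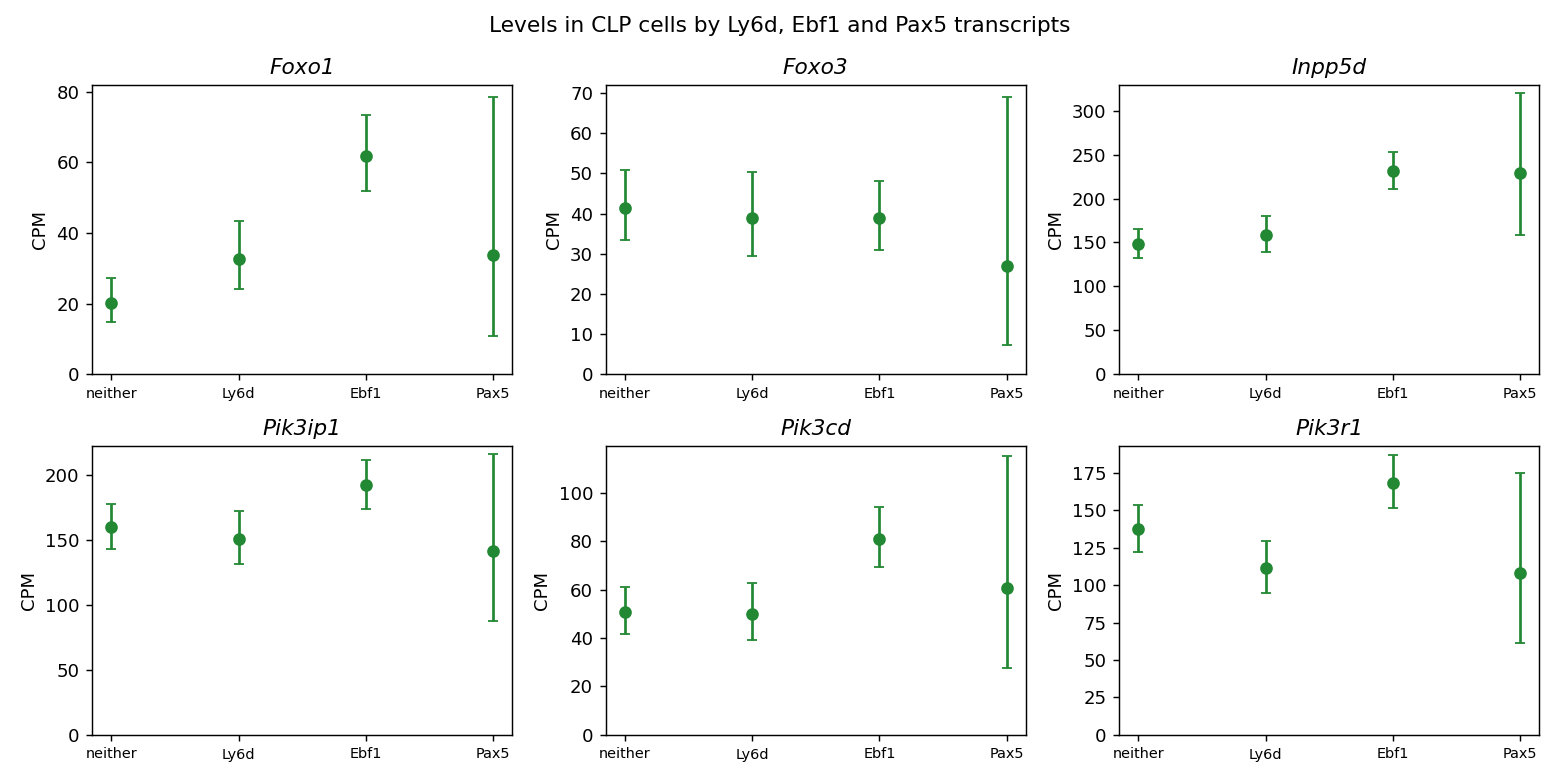
Level in CPM (linear axis from 0) of 6 of the genes in 4 classes of CLP cells, set by UMIs after thinning, from neither Ebf1 nor Ly6d on the left to Pax5 on the right, with bars for 95% Poisson intervals. Foxo1 stands at 20.2, 32.8 and 61.9 CPM in the first 3 classes and Foxo3 at 41.4, 38.9 and 38.8 CPM, and the wide bars of the Pax5 class come from 23 cells.

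Set against the Ebf1 class of CLP in place of all CLP, pro-B differed less in Foxo1 (84.4 against 61.9 CPM, log2 0.45, 0.17 to 0.73, and 0.12 without ribosomal protein and mitochondrial genes in the total). The differences in Foxo3 (11.0 against 38.8 CPM, log2 −1.82, −2.28 to −1.36) and in Pik3r1 (47.8 against 168 CPM, log2 −1.82, −2.03 to −1.60) were 3.53-fold and 3.52-fold. At 2-fold or more, 0 of the 7 genes were higher in pro-B here and 3 were lower, the other being Pik3ip1, beside 15.7% and 17.3% of 11213 genes. Along this order Foxo1 took 32.8%, 45.7% and 61.5% of the joint Foxo1 and Foxo3 UMIs in the classes with neither, Ly6d and Ebf1. The intervals were 25.0 to 41.5, 36.0 to 55.7 and 54.6 to 68.1. Those of neighbouring classes overlapped, and only the class with neither and the Ebf1 class stood apart. The Pik3cd share of joint Pik3cd and Pik3r1 UMIs was 27.0%, 30.9% and 32.4%, with overlapping intervals. In CLP cells with Ebf1, Foxo1 was high while Foxo3 was level with the other CLP classes and Pik3r1 was above them (168 CPM, against 111 in the Ly6d class and 137 in the class with neither).

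**Figure D4:**
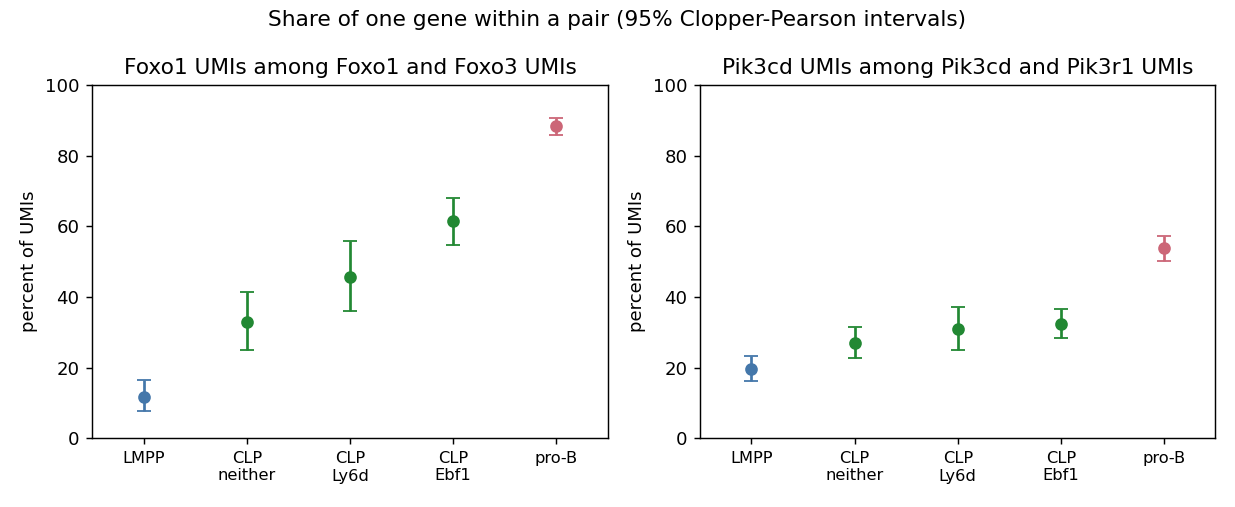
Percent of joint UMIs taken by Foxo1 within Foxo1 plus Foxo3 (left) and by Pik3cd within Pik3cd plus Pik3r1 (right), in LMPP, 3 classes of CLP cells and pro-B, with bars for 95% Clopper-Pearson intervals. The Foxo1 share is 11.6% in LMPP, 32.8%, 45.7% and 61.5% in the CLP classes and 88.5% in pro-B, and the Pik3cd share lies between 27.0% and 32.4% in the CLP classes and at 53.8% in pro-B.

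Pro-B cells also differed from the earlier stages in the cell cycle. Cells with 3 or more thinned UMIs of an 18-gene G2/M list made up 51.5% of pro-B, against 5.95% of CLP and 3.84% of LMPP, and cells low in both G2/M and S phase transcripts made up 31.2% of pro-B, against 72.8% of CLP and 78.0% of LMPP. These classes are ranges of a count. In pro-B 87 cells were just inside the G2/M limit and 143 just outside.

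Within pro-B, Pik3ip1 had 60.9 CPM in the G2/M class, 65.1 in the S phase class and 214 in the low class. The G2/M class was 3.52-fold below the low class (log2 −1.82, −2.07 to −1.57) and the S phase class 3.29-fold below (log2 −1.72, −2.09 to −1.36). Foxo1 had 72.3 CPM in the G2/M class, 66.6 in the S phase class and 148 in the low class, and both cycling classes were more than 2-fold below. With 5 or more UMIs defining the classes, the G2/M class was 1.72-fold below (log2 −0.78). Inpp5d (139, 123 and 221 CPM) and Pik3cd (53.6, 36.6 and 80.2 CPM) were also highest in the low class. Pik3r1 was highest there too (45.1, 42.6 and 61.9 CPM), but its intervals overlapped. Foxo3, at 11.2, 9.72 and 12.2 CPM, had overlapping intervals.

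At 2-fold or more, 2 of the 7 genes were lower in the G2/M class than in the low class of pro-B (Foxo1 and Pik3ip1), and 0 were higher, beside 15.4% and 11.6% of 10257 genes, with a median log2 ratio of −0.15 over all of them. In the S phase class 3 of the 6 genes with 10 UMIs were lower (Foxo1, Pik3ip1 and Pik3cd) and 0 higher, beside 16.9% and 10.1% of 9090 genes. With 5 or more UMIs defining the classes, Foxo1 in G2/M and Pik3cd in S phase (log2 −0.70) were no longer 2-fold lower. Ebf1 had 3014 CPM in the G2/M class and 6108 in the low class, and Rag2 61.1 and 181. Low-class cells also had fewer UMIs, with a median of 3083.5, against 8274 in the G2/M class. Counted per cell and not as CPM, Foxo1 had 0.632 UMIs in the G2/M class (0.567 to 0.702) and 0.509 in the low class (0.435 to 0.592), with overlapping intervals. Pik3ip1 had 0.532 UMIs per G2/M cell (0.473 to 0.596) and 0.737 per low cell (0.647 to 0.835). By the same count Inpp5d had 1.21 UMIs per G2/M cell (1.12 to 1.31) and 0.760 per low cell (0.670 to 0.860). Pik3cd had 0.468 (0.413 to 0.529) and 0.275 (0.222 to 0.338), and Pik3r1 0.394 (0.343 to 0.450) and 0.213 (0.166 to 0.268). Inpp5d, Pik3cd and Pik3r1 were thus lower per cell in the low class, the reverse of their CPM. The higher Foxo1 level of the low class is thus a larger share of a smaller transcript total, whereas Pik3ip1 was higher there on both scales.

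**Figure D5:**
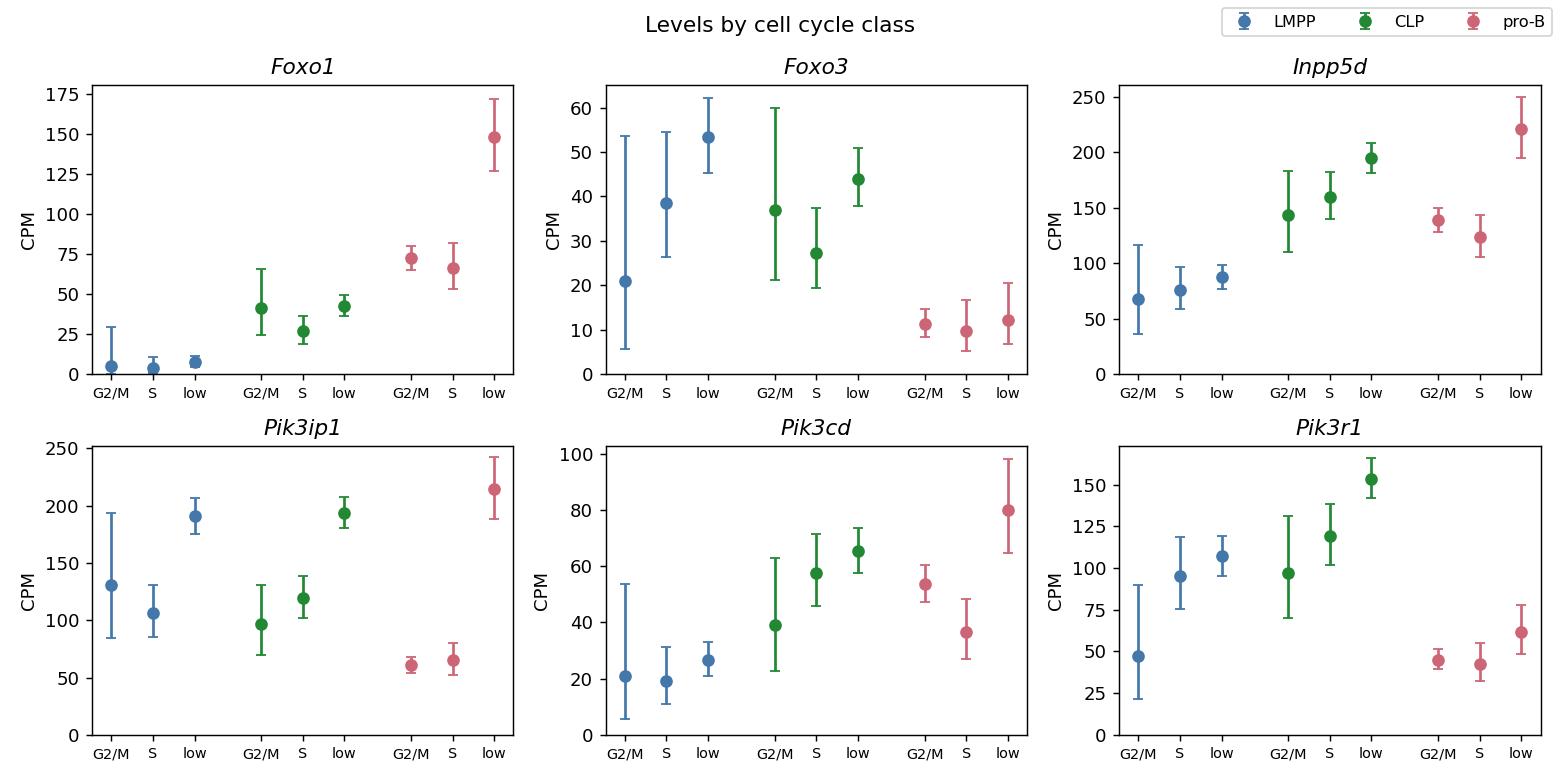
Level in CPM (linear axis from 0) of 6 of the genes in cells of the G2/M, S phase and low classes of LMPP, CLP and pro-B, with bars for 95% Poisson intervals. In the low classes Pik3ip1 stands at 191 CPM in LMPP, 194 CPM in CLP and 214 CPM in pro-B, while Foxo3 lies between 9.72 and 12.2 CPM in the 3 classes of pro-B.

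Comparing stages within a cycle class separates the genes. Among low-class cells Pik3ip1 had 214 CPM in pro-B, against 194 in CLP (log2 0.15, −0.07 to 0.36), and −0.19 without ribosomal protein and mitochondrial genes in the total. On the CPM scale the whole-library ratio of −0.95 was thus not seen among cells low in cycle transcripts. Low-class pro-B cells had a median of 3083.5 UMIs, against 6116 in low-class CLP. Counted per cell, Pik3ip1 was lower in low-class pro-B, at 0.737 UMIs (0.647 to 0.835), against 1.18 in low-class CLP (1.10 to 1.27). In the S phase class Pik3ip1 was lower in pro-B than in CLP (65.1 against 119 CPM, log2 −0.87, −1.26 to −0.49), and in the G2/M class likewise (60.9 against 97.0 CPM, log2 −0.67, −1.14 to −0.17). Inpp5d and Pik3cd in low-class cells had pro-B over CLP ratios whose intervals include 0, at log2 0.19 (−0.02 to 0.39) and 0.30 (−0.06 to 0.64). Under the other scaling they were −0.15 and −0.04. Per low-class cell, Inpp5d had 0.760 UMIs in pro-B and 1.19 in CLP, and Pik3cd 0.275 and 0.399.

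Foxo1, Foxo3 and Pik3r1 kept their direction between pro-B and CLP in all 3 cycle classes. Foxo1 was higher in pro-B by log2 0.80 in the G2/M class, 1.32 in the S phase class and 1.80 in the low class. Foxo3 was lower by −1.72, −1.49 and −1.85, and Pik3r1 by −1.11, −1.48 and −1.31. The G2/M value of Foxo1 (interval 0.12 to 1.57) rests on 18 CLP UMIs. Under the other scaling the Foxo1 values were 0.63, 1.11 and 1.47. Per low-class cell, Foxo1 had 0.509 UMIs in pro-B (0.435 to 0.592) and 0.260 in CLP (0.223 to 0.302). Between low-class pro-B and low-class CLP with Ebf1, Foxo1 was 148 against 70.4 CPM (log2 1.07, 0.72 to 1.43, and 0.74 under the other scaling). In these cells Foxo3 was 12.2 against 40.6 CPM, Pik3r1 61.9 against 173 CPM, and Pik3ip1 214 against 213 CPM (−0.32 under the other scaling).

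Each library was also clustered without the 7 genes, and their levels in the clusters are given as a description. In CLP, a B-like cluster of 203 cells led by Vpreb2, Cd79a and Vpreb3 had 87.1 CPM of Foxo1, 253 of Inpp5d and 99.9 of Pik3cd. A CLP cluster of 313 cells led by Cd34 and Ccl3 had 19.6, 158 and 51.6 CPM of the same genes. A second B-like CLP cluster, 25 cycling cells led by Igll1 and Ptcra, had 7 Foxo1 UMIs (28.3 CPM). In pro-B, a cluster of 387 cells (median 2792 UMIs) led by Heyl, Ltb and Fcrl6 had 174 CPM of Foxo1 and 258 of Pik3ip1. At the other end, 54 pro-B cells with a median of 14945 UMIs, led by Mt1, Nrgn and Myc, had 19.5 CPM each of Foxo1, Pik3ip1 and Pik3cd, from 16 UMIs each. In no library did the 5 richest cells give more than 23.1% of the UMIs of any of the 7 genes.

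By Euclidean distance over the 2 log2 ratios between neighbouring stages, computed from these 3 libraries, the genes nearest to Foxo1 among 6421 candidates were Rag2, St3gal6 and Socs2. Rag2, a subunit of the V(D)J recombinase, had 6.48 CPM in LMPP, 37.5 CPM in CLP and 79.1 CPM in pro-B, at a distance of 0.07. Nearest to Foxo3 were Slc25a23, Dnmt3b (a DNA methyltransferase, at 36.9, 30.5 and 8.69 CPM) and Klk8. Nearest to Inpp5d were Frmd6, Rbm8a2 and Btg1, to Pik3ip1 Wiz, Tmem201 and Il10rb, and to Pik3cd Gimap9, Trp53inp1 and Pik3c2a. Pik3r1 lay next to Arhgap9, Rassf2 and Sgk3, and Foxo4 next to Prdm2, Hagh and Aven. With 3 libraries such likeness is coarse.

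Among 26 genes known as Foxo targets in some cell type, 6 of 25 measured were higher in CLP than in LMPP at 2-fold or more and 0 lower, beside 7.42% and 6.61% of all genes, with a median log2 ratio of 0.29. Il7r had 141 CPM in CLP and 3.74 in LMPP, but IL7Ra is part of the gate. The adaptor gene Blnk had 134 CPM in CLP and 9.22 in LMPP. Between pro-B and CLP, 4 of 26 were higher and 7 lower, beside 13.2% and 19.9% of all genes (median −0.44). Blnk (582 against 134 CPM), the catalase gene Cat (139.9 against 31.0) and Rag2 were higher in pro-B, and Ccnd2 (115 against 408) and Cited2 (55.1 against 132) lower. Ccnd2, which encodes cyclin D2, and Ccnd1, with 1.09 CPM in pro-B and 13.9 in CLP, are genes that Foxo proteins repress in other cells. Txnip had 47.9 CPM in pro-B, 70.7 in CLP and 128 in LMPP. Members of the list differed in both directions.

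Of other brakes on the pathway, 4 of 16 were higher and 1 lower in CLP over LMPP, beside 7.42% and 6.61% of all genes. In pro-B over CLP 1 of 15 was higher and 5 lower, beside 13.2% and 19.9%. The adaptor gene Dok3 was higher at each stage (7.72, 19.3 and 78.0 CPM), whereas Dok2 had 4.21 CPM in pro-B, against 83.6 in CLP and 68.2 in LMPP. Pdcd4, a translation inhibitor degraded downstream of mTOR signalling, had 41.5 CPM in pro-B and 138 in CLP. Inpp4a, a lipid phosphatase gene, had 3.53 CPM in pro-B, 7.88 in CLP and 11.2 in LMPP. Inpp4b (12 against 3 UMIs) was called higher and Inppl1 (3 against 7 UMIs) lower in CLP than in LMPP, and Phlpp2 (15 against 18 UMIs) lower in pro-B than in LMPP, each from few UMIs.

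Of the other PI3K subunits and adaptors, 3 of 11 were higher and 1 lower in CLP than in LMPP (all genes, 7.42% and 6.61%), and 2 of 11 were higher and 1 lower in pro-B than in CLP (all genes, 13.2% and 19.9%). Pik3r6, a regulatory subunit of p110γ, had 66 UMIs in CLP (11.1 CPM), 67 in pro-B (9.09 CPM) and 1 in LMPP. Pik3r5, another regulatory subunit of p110γ, had 5.19 CPM in CLP and 2.24 in LMPP. Pik3ap1, which encodes the adaptor BCAP, had 7.60 CPM in pro-B, 1.34 in CLP and 3.49 in LMPP. Pik3cb, the p110β gene, had 2 UMIs in pro-B, 11 in CLP and 9 in LMPP, and the adaptor gene Gab2 had 8.55 CPM in pro-B and 3.49 in LMPP.

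Downstream, 0 of 17 Akt and mTOR genes differed by 2-fold between CLP and LMPP, where 7.42% of all genes were higher and 6.61% lower. In pro-B over CLP 2 of 17 were higher and 1 lower, beside 13.2% and 19.9%. Sgk1, a kinase related to Akt that also phosphorylates Foxo proteins, had 75.5 CPM in pro-B, 2.68 in CLP and 4.73 in LMPP, 28.1-fold above CLP (log2 4.81, 4.10 to 5.63). Its relative Sgk3 had 13.2 CPM in pro-B and 40.1 in CLP, and Rptor, the mTORC1 scaffold, 56.2 and 23.8. Of 21 measured forkhead and Foxo cofactor genes, 1 was higher in CLP than in LMPP, and in pro-B over CLP 5 were higher and 0 lower, against the same shares of all genes. The first was Foxm1, a forkhead factor of proliferating cells, at 24.7 CPM in pro-B, 5.87 in CLP and 0.747 in LMPP. The 14-3-3 genes Ywhaq (396 against 180 CPM) and Ywhah (348 against 132 CPM), whose proteins hold phosphorylated Foxo in the cytoplasm, and Skp2 (33.3 against 11.6 CPM), a ubiquitin ligase subunit that targets Foxo1, were above CLP in the pro-B library. Ywhae had 584 CPM in pro-B and 269 in LMPP, and Foxj2 4.89 and 12.7. Foxm1 and Skp2 are expressed with the cell cycle, and the G2/M class of pro-B was larger as given above, and the part of cycling in these values was not tested.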

How the data were processed

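Raw UMI counts per gene and cell barcode were deposited by the authors, made with Cell Ranger on build mm10 per the submitters' processing notes. The sources used here do not give its version or how cells were called. Per the labels about 3000 cells were loaded, against 599, 979 and 1123 deposited barcodes in LMPP, CLP and pro-B. Cultured iLS cells named there were not analysed here.

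A barcode was kept when it had at least 500 genes and no more than 10% mitochondrial UMIs. Counts were summed per library or class and divided by the total to give CPM. A gene with 10 or more UMIs over both libraries was called at 2-fold or more. Where a library had 0 UMIs it was set to the floor of 3. For shares and classes each cell of 2000 or more UMIs was thinned to 2000, which left out 6 LMPP, 40 CLP and 36 pro-B cells, and class levels used the full counts of the other cells. The G2/M class took 3 or more UMIs of its list, the S phase class the others with 3 or more of the S phase list, and the low class the rest. Each library was clustered on its own without the 7 genes (2000 variable genes, 20 principal components, 15 neighbours, Leiden resolution 0.5), and clusters were named from marker lists. Scrublet called 11 LMPP, 6 CLP and 0 pro-B cells as doublets. They were kept, and an alternative left them out. Doublets of like cells can be missed, and the call of 0 in pro-B does not show that there are none.

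The 7 genes, the lists and the classes were chosen with earlier results of these data known. Beyond the 7, the text names up to 3 genes of each pathway list with the highest CPM called in each direction, the 3 genes nearest to each of the 7 (among those with 200 or more UMIs), genes that check labels or define classes, and genes that lead a cluster. Some genes that this rule names are counted in their lists but not reported here. Rag2 by cycle class, the pair shares, the counts per cell and the stage ratios within classes were added after values were seen. The alternatives were other scalings, filters on cells and on low counts, other fold limits, equal weight per cell, thinned cells, and leaving out doublet calls, cycling cells or other lineages. Computations used Python 3.11.15, NumPy 2.4.6, SciPy 1.17.1, pandas 2.3.3 and scanpy 1.11.5, and the calling step was tested on simulated data.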

Additional observations from a re-analysis of the deposited data

How the results depend on the processing

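Of 21 ratios (7 genes, 3 comparisons), 15 kept their sign under 9 alternatives. The exceptions were Foxo3 in CLP over LMPP (0.15 with cells thinned to 2000 UMIs), Pik3ip1 in CLP over LMPP (near 0 throughout) and, among cells low in cycle transcripts, Pik3ip1 in pro-B over CLP and over LMPP (0.15 and 0.17), Inpp5d in pro-B over CLP (0.19) and Pik3cd in pro-B over CLP (0.30, and 0.0027 with equal weight per cell). Foxo1 in pro-B over CLP, log2 1.13, was 0.82 with the total taken without mitochondrial and ribosomal protein genes, 1.41 with equal weight per cell, 1.49 with thinned cells and 1.80 among cells low in cycle transcripts. Without those genes in the total, 0 of the 7 were higher and 3 lower at 2-fold in pro-B over CLP (all genes, 8.81% and 27.4%), and 1 was higher and 4 lower in pro-B over LMPP (all genes, 9.58% and 28.4%). Called at 4-fold, 1 was higher in CLP over LMPP (all genes, 2.23%), 0 were higher and 0 lower in pro-B over CLP (4.66% and 8.85%), and 1 was higher and 1 lower in pro-B over LMPP (5.66% and 9.4%). Called at 1.5-fold, 4 were lower in pro-B over CLP (all genes, 30.6%). With equal weight per cell, or with thinned cells, 1 was lower in pro-B over LMPP (all genes, 18.3% and 15.9%). The cause of these shifts was not tested. Leaving out the clusters named for dendritic or innate lymphoid cells (97 LMPP and 138 CLP cells) or the doublet calls turned none of the 21 signs. The 97 LMPP cells were 1 cluster, named dendritic-like but led by Ly6d and Irf8 with cycle genes such as Hells and E2f1. Its name is therefore uncertain. With 5 and not 3 UMIs defining the cycle classes of pro-B, Pik3cd in G2/M over low was −0.11 in place of −0.58 and Foxo1 −0.78, under 2-fold. In the classes, the other scaling was added after seeing the data. With 3 UMIs as the floor, Foxo4, at 32 to 40 UMIs a library, limits any statement on that gene. No paired analysis was possible because each population is 1 library with no replicate.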
